A study of Mus musculus with 8 samples.

Results

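The genes described here are the mouse Wnt ligands and the receptors that bind them. They were taken by symbol from the deposited table as every Wnt and Frizzled (Fzd) gene together with Lrp5, Lrp6, Ror1, Ror2 and Ryk, which gave 34 of the 34536 gene symbols. The 34 are 19 Wnt ligands, 10 Frizzled receptors, 2 Lrp co-receptors and 3 alternative receptors. The study sequenced RNA of mouse cells that had been sorted by FACS from embryoid bodies, which are clumps of pluripotent stem cells left to differentiate in culture. By the cell type in the labels there are 2 groups of 4, with A, C, E and G labelled endocardial and B, D, F and H labelled endothelial. Endocardium is the endothelium that lines the heart chambers. No genotype or treatment is named for either group, and the sources used here give neither the day of culture, the stem cell line and the number of cultures nor the markers of the sort. The labels do not state that libraries of a group came from separate cultures, so the p-values measure the spread between these libraries only, and that spread may be technical.

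Wnt proteins are secreted lipid-modified ligands that bind a Frizzled receptor on the receiving cell. With Lrp5 or Lrp6 as co-receptor they stabilise beta-catenin, which turns on target genes together with TCF/LEF factors, while with Ror or Ryk receptors, or with planar cell polarity proteins, they act without beta-catenin. In the embryo Wnt signals first promote mesoderm and later restrain and pattern cardiac progenitors, and Frizzled4 signalling is known for its role in retinal and brain vessels.

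Library totals ranged from 6677667 to 11369363 estimated counts, so that 3 counts corresponded to 0.267 to 0.438 CPM (counts scaled to a common library total). Of 5 endocardial markers 3 rose in the endocardial libraries, Nfatc1, Hapln1 and Nrg1, while Gata4 (0.54, adjusted p = 0.507) and Npr3 (0.30, 0.793) were not called. Nfatc1, a transcription factor of endocardium, was higher by 2.09 ± 0.17 (log2 fold change ± SE, edgeR adjusted p = 0.000187). Cdh5, the cadherin of endothelial junctions, was at 14.5 to 17.1 CPM in the endothelial libraries and 119.4 to 157.2 CPM in the endocardial ones (log2 fold change 3.04, adjusted p = 3.96e-06). Pecam1 (0.82, adjusted p = 0.0069) and Kdr (1.34, adjusted p = 0.0347) were also higher in the endocardial libraries. Of the 8 endothelial markers 6 were called in that direction, and so were lower in the libraries that carry the endothelial label. Emcn (2.58, 0.0629) and Tek (0.15, 0.932) were not called, and none of the 8 was at 0 in every library. The summed level of 8 neural ectoderm markers was 17.5 to 58.4 CPM in the endocardial and 90.3 to 267.4 CPM in the endothelial libraries, and that of 8 pluripotency markers was 24.9 to 108.9 against 114.4 to 861.3 CPM. Library F had the highest value of both sums, and no marker of either list was at 0 in every library. The largest part of the pluripotency sum was Dppa5a in F (486.5 CPM) and Klf4 in G (65.1 CPM), and neither gene was called.

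Of the 34 genes, 28 had enough counts to be tested. In the endocardial libraries 2 of them fell, the ligand Wnt8b and the receptor Fzd5, and 0 rose. Of all 13817 tested genes, 160 fell (1.16%) and 196 rose (1.42%), or 2.58% in either direction, at an edgeR adjusted p below 0.05. At an unadjusted p below 0.05, 14 of the 28 were lower (8.99% of all tested genes) and 2, Fzd10 and Wnt4, were higher (5.65% of all tested genes). The log2 fold change was below 0 in 19 of the 28, in 20 with upper-quartile scaling or limma voom, and in 22 without library F. The median log2 fold change of the 28 was -0.37, where that of all tested genes was 0.01. In 6 of the 28, Wnt8b, Wnt5b, Fzd5, Fzd3, Fzd8 and Fzd2, every endothelial library was above every endocardial one, as in 5.33% of all tested genes, and in 0 of the 28 was the reverse true, against 4.42%. These are bulk samples, in which fewer cells of a type and less RNA per cell cannot be told apart. The count depended on the test. DESeq2 found 7 lower and 1 higher (6.25% of its tested genes in either direction) and limma voom found 5 lower and 2 higher (7.06%). With each pair of neighbouring letters as a block, a pairing that no label states, edgeR found 11 lower and 1 higher (8.71%). The 10 that the block added to Wnt8b and Fzd5 were Wnt1, Wnt5b, Wnt6, Wnt7b, Wnt9a, Wnt9b, Wnt10b, Ror2 and Fzd3 as lower and Fzd10 as higher. In each of the 10 all 4 neighbouring pairs differed in the direction of the call. The fit picked these 10 by differences within the same pairs, so this agreement adds no support to the calls. A gene passes the filter on low counts through whichever libraries are high, so counts and medians over the 28 are descriptions of those that passed.

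**Figure D1:**
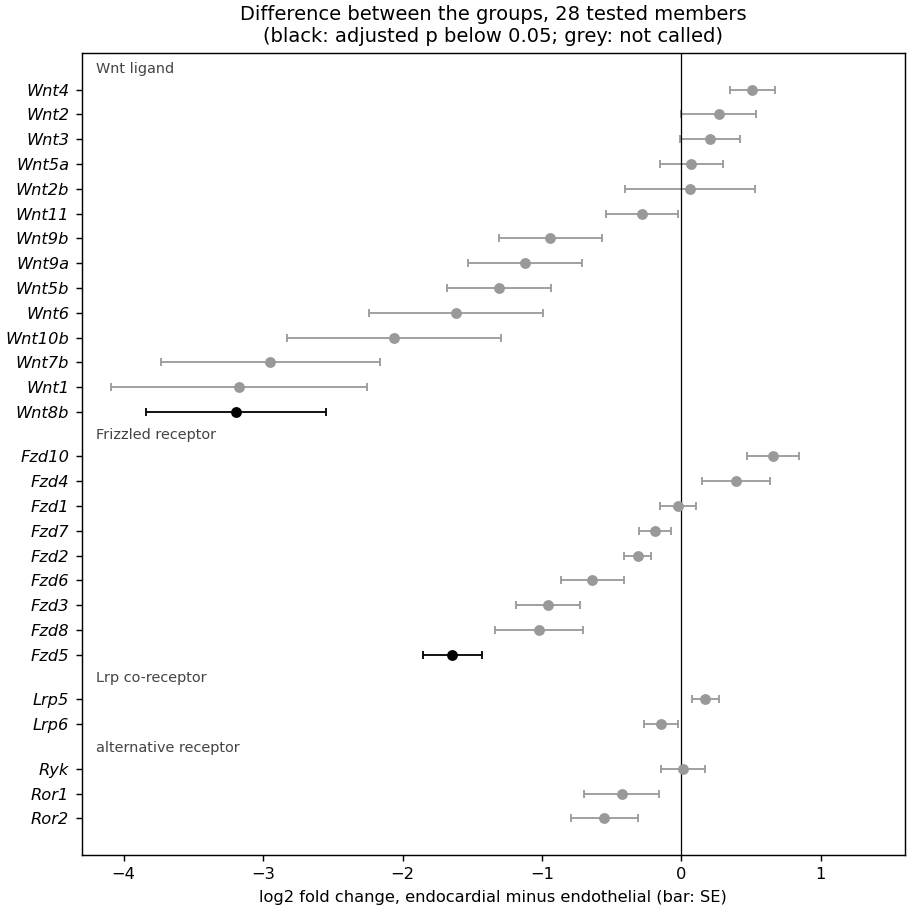
Log2 fold change (endocardial minus endothelial, horizontal axis) of each tested ligand and receptor, with bars of 1 SE, from the edgeR fit on 4 libraries a group. Wnt8b at -3.19 and Fzd5 at -1.64 are in black as the 2 that passed the adjusted threshold, and 19 of the 28 points lie below 0.

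The genes that fell lie behind promoters of different composition, and the sequence before each start is given because these are the members on which the count turns. Both are RefSeq promoters of GRCm38.p6, written 5′ to 3′ on the gene's own strand and ending at the base before the RefSeq start. The Fzd5 stretch thus ends on base 64737751, which the annotation used for the gene span below counts as part of the gene. Fzd5 is on the minus strand (chr1:64737751-64738000) and Wnt8b on the plus strand (chr19:44493222-44493471). Capitals mark GC boxes (GGGCGG or its complement CCGCCC) in Fzd5 and a TCF/LEF core (CTTTGT) in Wnt8b.
Fzd5: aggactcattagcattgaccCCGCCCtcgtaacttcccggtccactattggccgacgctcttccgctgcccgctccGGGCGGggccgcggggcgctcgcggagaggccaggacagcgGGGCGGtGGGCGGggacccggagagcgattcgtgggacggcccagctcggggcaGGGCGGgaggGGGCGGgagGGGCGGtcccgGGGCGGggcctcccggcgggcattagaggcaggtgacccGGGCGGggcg
Wnt8b: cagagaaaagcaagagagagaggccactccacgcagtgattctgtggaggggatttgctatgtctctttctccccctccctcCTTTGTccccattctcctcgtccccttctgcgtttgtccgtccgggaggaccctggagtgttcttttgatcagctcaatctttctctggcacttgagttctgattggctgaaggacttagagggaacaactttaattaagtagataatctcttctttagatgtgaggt
The Fzd5 promoter had a GC content of 76.4% and 9 GC boxes. The Wnt8b promoter had a GC content of 48.4%, 0 GC boxes and 1 CTTTGT, 168 bases before the start. Of the 34 genes, 24 were matched in the promoter table, with 27 promoters in all. GGGCGG was in 77.8% of these and in 32.7% of all 32851 promoters of the same length, and the median GC content was 71.6% against 52.4%. The TCF/LEF cores were in shares near those of all promoters, with CTTTGA in 14.8% against 13.8% and CTTTGT in 14.8% against 16.5%. The SOX core ACAATG was in 7.41% against 10.7% and the TATA box TATAAA in 11.1% against 12.4%. Motifs were searched on both strands, and a match is a run of letters and does not show binding.

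Among the ligands, Wnt8b is best known from the developing forebrain. The gene spans 44493472 to 44514273 on the plus strand of chromosome 19 (GRCm38). Its level was 1.03 CPM in library A, 1.15 in C, 1.61 in E and 0.12 in G of the endocardial group, and 4.01 in B, 10.8 in D, 17.4 in F and 4.66 in H of the endothelial group. The groups did not overlap, D and F were the highest libraries, and the value in G rests on 1 count. The log2 fold change was -3.19 ± 0.64 (SE), 9.15-fold lower in the endocardial libraries (adjusted p = 0.0329). The call did not hold without library A (adjusted p = 0.0981), C (0.106), D (0.0917), E (0.0838), F (0.0554) or G (0.0688). Without library B or H it held, at 0.0223 and 0.0334.

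Wnt1, Wnt7b and Wnt10b were also highest in libraries F and D, and none of the 3 passed the test without a block. With it they did, at an adjusted p of 0.000303 for Wnt1, 0.00133 for Wnt7b and 0.0473 for Wnt10b. Wnt1, a ligand of the midbrain and hindbrain boundary and of the dorsal neural tube, was at 0.65 CPM in A, 1.26 in C, 2.90 in E and 0.12 in G, against 4.64 in B, 14.2 in D, 25.4 in F and 1.67 in H. Libraries D and F were far above the rest, while H lay below E, so the groups overlapped (log2 fold change -3.17 ± 0.92, adjusted p = 0.118). The value was -2.43 without F and -4.03 without E. Wnt7b, which with Wnt7a drives the growth of brain vessels, was at 0.13 CPM in A, 1.47 in C, 1.18 in E and 0.37 in G, against 1.43 in B, 8.03 in D, 12.9 in F and 3.11 in H. Only B, at just under C, made the groups overlap (-2.95 ± 0.79, adjusted p = 0.0911), and AU022754 overlaps the gene on the opposite strand. Without library B the adjusted p of Wnt7b was below the threshold, and Wnt7b and Wnt1 were among the 7 that DESeq2 found lower. Wnt10b, a ligand of mammary, bone and fat development, was at 0.90 CPM in A, 2.09 in C, 1.08 in E and 0.50 in G, against 2.50 in B, 5.26 in D, 11.2 in F and 0.60 in H. H lay within the endocardial range (-2.06 ± 0.77, adjusted p = 0.235), and without F the value was -1.25.

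The summed neural ectoderm markers were, like Wnt8b, Wnt1, Wnt7b and Wnt10b, highest in F and then D. The order of all libraries within a group was shared with the marker sum by Wnt1 only of the 4. In Wnt8b and Wnt7b library H was above B, and in Wnt7b and Wnt10b library C was above E. The neural marker sum was 267.4 CPM in F, 172.0 in D, 102.0 in B and 90.3 in H, and 58.4 in E, 37.3 in C, 19.8 in A and 17.5 in G. Its largest parts were Sox2 (111.1 CPM in F and 62.4 in D) and Otx2 (95.7 and 57.7). Sox2, Otx2, Sox1 and Six3 were highest in F and then D. Pax6 was highest in H (12.8 CPM, against 11.1 in D and 10.95 in F), and Zic1 in D (11.1, against 8.55 in F). Of the 8 neural ectoderm markers 6 were tested and 3 fell in the endocardial libraries. These were Sox1 (-3.01, adjusted p = 0.031), Pax6 (-1.86, 0.00396) and Six3 (-2.61, 0.0276), transcription factors of early neural tissue. Otx2 (-2.26, 0.0569), Sox2 (-2.19, 0.0752) and Zic1 (-1.55, 0.253) were not called. Of the 8 pluripotency markers, all tested, Fgf4 (-3.67, adjusted p = 0.0441) and Tdgf1 (-2.15, 0.0315) fell. Pou5f1 (-3.38, 0.0569), Esrrb (-3.25, 0.0976), Nanog (-2.99, 0.102), Zfp42 (-3.27, 0.182), Dppa5a (-3.40, 0.252) and Klf4 (-0.12, 0.96) were not called. Of 6 epithelium markers, all tested, Cdh1 (-2.125, adjusted p = 0.031) and Epcam (-2.20, 0.0465) fell. Cldn4 (-2.32, 0.0593), Cldn6 (-1.43, 0.187), Krt18 (0.12, 0.924) and Krt8 (0.02, 0.991) were not called. Of 5 tested heart muscle markers 0 were called, and all 5 were above 0 (median 1.05). In the primitive streak list 0 of 3 tested were called (median 0.05), T among them (-0.30, adjusted p = 0.852). Sox17 (1.84, 0.0109) was the 1 called of 4 tested endoderm markers. Of 6 mesenchyme and 6 blood markers 0 were called, with medians of 0.07 and 1.16. The mesenchyme sum was highest in B, at 17990 CPM. What part these other cell types have in the ligand and receptor differences was not tested.

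**Figure D2:**
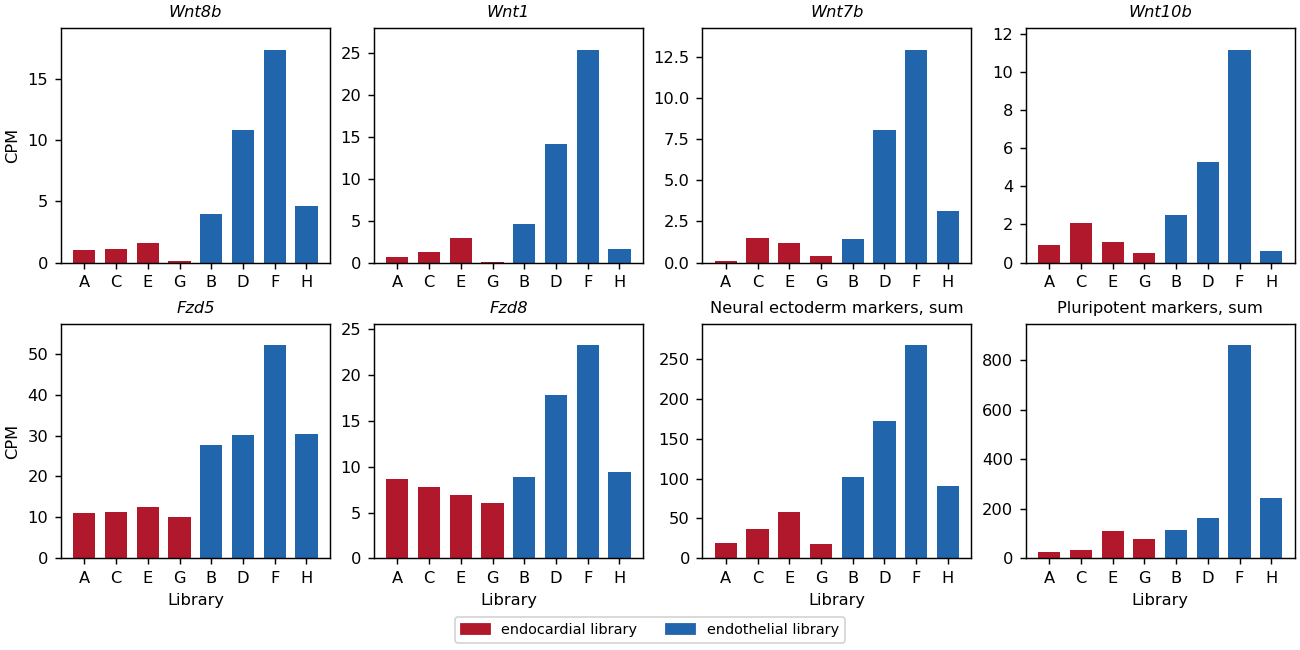
Level in each library (CPM, linear axes from 0) of Wnt8b, Wnt1, Wnt7b, Wnt10b, Fzd5 and Fzd8 beside the summed neural ectoderm and pluripotency markers, with endocardial libraries in red and endothelial ones in blue. Library F is the highest in all 8 panels, for example at 17.4 CPM for Wnt8b and 267.4 CPM for the neural sum, and D is next in 6 of the 8.

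Wnt5b, a relative of Wnt5a that acts mostly without beta-catenin, had groups that did not overlap. It was at 4.13 CPM in A, 5.13 in C, 5.16 in E and 2.37 in G, against 8.56 in B, 10.2 in D, 17.4 in F and 5.62 in H. The lowest endothelial library, H, was just above the highest endocardial one, E (-1.31 ± 0.37, adjusted p = 0.106). Fbxl14, which overlaps Wnt5b on the opposite strand, had a log2 fold change of 0.17 (adjusted p = 0.506). Wnt9a, a ligand of joint formation, had a log2 fold change of -1.12 (adjusted p = 0.217), and Wnt9b, a kidney-inducing ligand, of -0.94 (0.264). Wnt6, which is expressed in surface ectoderm, was at -1.62 (0.256), or -1.04 without F and -2.48 without E. In each of these 3 genes the endocardial and endothelial ranges overlapped. With the block the adjusted p was 0.00724 for Wnt5b, 0.00808 for Wnt9a, 0.0308 for Wnt9b and 0.0269 for Wnt6. Without a block, DESeq2 found Wnt5b lower and limma voom found Wnt6 lower.

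The 5 ligands with the most counts and Wnt2b lay nearer to 0 or above it. Wnt5a, a ligand of the beta-catenin-independent branch, was at 78.7 to 116.8 CPM in the endocardial and 54.2 to 115.1 CPM in the endothelial libraries (0.07 ± 0.23, adjusted p = 0.933). Wnt4, known from kidney and gonad development, was at 22.3 CPM in A, 20.8 in C, 16.0 in E and 19.2 in G, against 12.2 in B, 13.4 in D, 12.5 in F and 17.0 in H. H lay above E, so the groups overlapped, and Wnt4 did not pass the test (0.51 ± 0.16, adjusted p = 0.153), although limma voom placed it among its 2 higher genes. Wnt2, which marks the early heart field region (0.27, adjusted p = 0.733), Wnt3, which is needed for the primitive streak (0.20, 0.746), Wnt11, a ligand of cardiac development (-0.28, 0.703), and Wnt2b (0.06, 0.975) were not called. In all 6 of these the groups overlapped.

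Split by read count, the 5 ligands with a mean of at least 10 CPM were above 0 in 4 cases, with a median log2 fold change of 0.20. The 9 tested ligands under 10 CPM had a median of -1.62, and 8 of the 9 were below 0. Over all tested genes the medians in the same count ranges were 0.04 and -0.15. The filter bears on this, since 5 of the 9 had fewer than 4 endocardial libraries at the 1.13 CPM it asks of 4 libraries, and 1 had fewer than 4 endothelial ones. In the fit without a filter, 12 of all 14 ligands under 10 CPM were below 0, with a median of -1.82, as were 59.4% of the 12866 genes under 10 CPM, with a median of -0.22. Summed over the 14 ligands under 10 CPM, tested or not, the level was 17.4 CPM in A, 29.3 in C, 29.7 in E and 19.8 in G, against 42.9 in B, 79.0 in D, 120.2 in F and 39.3 in H. The groups did not overlap in this sum, whereas the sum of the 5 abundant ligands was 144.2 to 178.3 CPM in the endocardial and 91.5 to 174.1 CPM in the endothelial libraries. Without library F, 9 of the 9 low ligands were below 0, with a median of -1.04, and 0 of the 14 tested ligands was called by edgeR without a block. The number of ligands called was also 0 without A, C, D, E or G, so this was not particular to F.

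**Figure D3:**
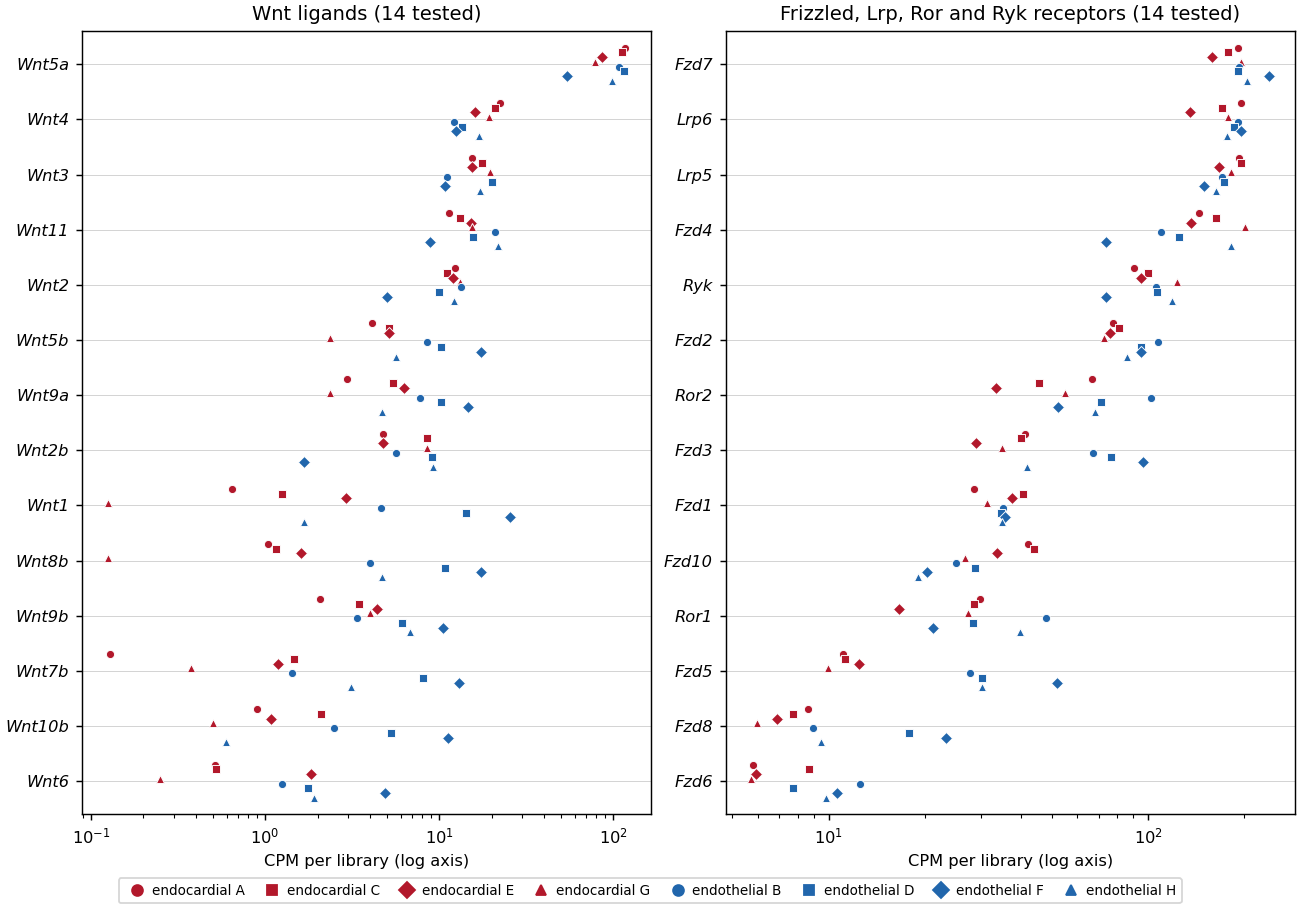
CPM of every tested ligand (left) and receptor (right) in each library on a log axis, with endocardial libraries in red above endothelial ones in blue and a marker shape for each library. The low ligands such as Wnt1, Wnt8b and Wnt7b spread over more than a factor of 10 between libraries, while the abundant receptors such as Lrp5, at 149.1 to 195.3 CPM, lie close together.

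Per kilobase of the longest annotated transcript, Wnt5a led the ligands in both groups, at 14.0 ± 2.69 CPM per kb (SD, n = 4) in the endocardial and 13.4 ± 3.88 in the endothelial libraries. In the endocardial group Wnt3 (5.52 ± 0.63), Wnt2 (5.39 ± 0.39) and Wnt4 (4.67 ± 0.64) followed, with overlapping ranges. In the endothelial group Wnt11 (4.87 ± 1.72), Wnt1 (4.83 ± 4.51) and Wnt3 (4.81 ± 1.48) followed, also with overlapping ranges. Wnt5a made up 33.7% ± 5.11 of the summed ligand level per kb in the endocardial libraries and 24.8% ± 8.36 in the endothelial ones, and Wnt8b 0.69% ± 0.44 and 4.71% ± 2.74. The length used matters for these orders. With the mean length of the annotated transcripts, Wnt5a was at 41.8 instead of 13.7 CPM per kb over all libraries.

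Some ligands sit beside each other in the genome with no protein-coding gene between them. Wnt10b and Wnt1 lie 11.7 kb apart on chromosome 15, in opposite directions, and had log2 fold changes of -2.06 and -3.17. Wnt9b and Wnt3 lie 24.3 kb apart on chromosome 11 and had -0.94 and 0.20. In the other pairs, Wnt6 and Wnt10a (6.2 kb, chromosome 1) and Wnt3a and Wnt9a (16.2 kb, chromosome 11), a partner had too few counts for the test.

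Of the 6 genes that were not tested, 5 are ligands. Wnt3a, a strong activator of beta-catenin in the primitive streak and the neural tube, had 0, 0, 0 and 1 counts in A, C, E and G and 9, 12, 4 and 6 in B, D, F and H. Each endothelial library exceeded each endocardial one, and without a filter on low counts Wnt3a was called (adjusted p = 0.0325), in a fit that called 1.59% of 22728 genes. Wnt8a, a ligand of the primitive streak, had 1, 2, 1 and 0 counts in A, C, E and G against 31, 8, 10 and 2 in B, D, F and H. It was not called without the filter (adjusted p = 0.0563). In the fit without library H, which tested 15 ligands, Wnt8a was called. The fits without A and without G also tested 15 ligands, and each called 0 of them. Wnt7a had 3 counts in E and 0 in the other endocardial libraries, against 0, 3, 20 and 1 in B, D, F and H. Wnt16 had 1, 1, 1 and 9 counts against 2, 0, 3 and 0, and was the only one of the 6 with more endocardial than endothelial counts. Wnt10a had 1 count, in F. A count of 0 allows up to 3 counts at these depths, so most of the endocardial values of Wnt3a, Wnt7a, Wnt8a and Wnt16 lie within that limit.

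Fzd5 fell in the endocardial libraries. It is a receptor of the beta-catenin branch, needed for yolk sac and placental vessels and for the eye, and spans 64730558 to 64737751 on the minus strand of chromosome 1, where the annotation has Gm38058 on the opposite strand. The level was 11.1 CPM in A, 11.3 in C, 12.5 in E and 9.98 in G, against 27.7 in B, 30.2 in D, 52.0 in F and 30.3 in H. The endocardial libraries lay close together, the lowest endothelial library was above all of them, and F stood above the other endothelial libraries. The log2 fold change was -1.64 ± 0.21, 3.12-fold lower (adjusted p = 0.0033). Fzd5 was called in all 17 alternative fits, the 8 that leave out a library among them, with adjusted p from 1.11e-09 to 0.0194.

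Fzd8, which is close to Fzd5 in sequence, was at 8.65 CPM in A, 7.75 in C, 6.88 in E and 5.99 in G, against 8.92 in B, 17.8 in D, 23.3 in F and 9.45 in H. The groups did not overlap, but B and H were only just above A (-1.02 ± 0.32, adjusted p = 0.138). DESeq2 found Fzd8 lower (adjusted p = 0.0492), and limma voom did not call it (0.0658). Fzd3, a receptor of axon guidance and planar cell polarity, was at 41.1 CPM in A, 40.1 in C, 28.9 in E and 34.9 in G, against 67.3 in B, 76.5 in D, 96.2 in F and 41.7 in H. Library H was close to A, and the other endothelial libraries were well above (-0.96 ± 0.23, adjusted p = 0.0612). Fzd3 was called without library H, by DESeq2 (adjusted p = 0.00352), by limma voom (0.0201) and with the block (0.0369). Fzd6, which with Fzd3 acts in planar cell polarity, had overlapping groups (-0.64 ± 0.23, adjusted p = 0.2).

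Fzd2, a receptor for Wnt5a among others, was at 77.5 CPM in A, 81.1 in C, 76.1 in E and 72.7 in G, against 107.2 in B, 94.8 in D, 94.8 in F and 85.7 in H. The groups did not overlap, yet the difference was small (-0.32 ± 0.10, adjusted p = 0.14). Fzd7, a receptor of pluripotent cells and of heart and gut formation, was at 158.1 to 195.1 CPM against 191.1 to 238.5 CPM (-0.19, adjusted p = 0.519). Fzd1 was at 28.5 to 40.6 CPM against 34.6 to 35.8 CPM (-0.02, 0.96).

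Fzd10 and Fzd4, of the subgroup that also holds Fzd9, were on the other side of 0. Fzd10 was at 42.1 CPM in A, 44.0 in C, 33.8 in E and 26.7 in G, against 25.0 in B, 28.8 in D, 20.3 in F and 19.0 in H. Only G lay within the endothelial range (0.66 ± 0.19, adjusted p = 0.11), and Fzd10 was among the genes that DESeq2, limma voom and the fit with the block (adjusted p = 0.00641) found higher. Fzd4, the receptor for Norrin in retinal vessels, was at 143.9 CPM in A, 163.4 in C, 135.8 in E and 200.9 in G, against 110.1 in B, 125.3 in D, 74.1 in F and 181.5 in H. The groups overlapped through H, and F was lowest (0.39 ± 0.24, adjusted p = 0.536). Fzd9 had 7, 10, 3 and 2 counts in A, C, E and G and 18, 14, 32 and 8 in B, D, F and H, too few for the test.

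Per kilobase, Fzd7 led the Frizzled receptors in both groups, at 39.9 ± 3.71 CPM per kb (SD, n = 4) in the endocardial and 45.6 ± 4.89 in the endothelial libraries. In the endocardial group Fzd4 (24.0 ± 4.31) and Fzd2 (21.0 ± 0.95) came next with overlapping ranges, and in the endothelial group Fzd2 (26.1 ± 2.40) and Fzd4 (18.3 ± 6.65), also overlapping. Fzd10 (11.3 ± 2.45 and 7.16 ± 1.37) and Fzd1 (8.21 ± 1.32 and 8.36 ± 0.12) followed. Fzd5 was at 1.62 ± 0.15 in the endocardial and 5.07 ± 1.65 in the endothelial libraries, so that even in the group where it was higher it was among the less abundant Frizzled transcripts. With mean transcript lengths Fzd3 moved from 4.19 to 8.11 and Fzd5 from 3.35 to 4.72 CPM per kb over all libraries.

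By subgroups of related receptors, Fzd1, Fzd2 and Fzd7 made up 61.8% ± 1.28 of the summed Frizzled level per kb in the endocardial and 65.7% ± 2.69 in the endothelial libraries, with overlapping ranges. The share of Fzd5 and Fzd8 was 2.71% in A, 2.50% in C, 2.90% in E and 2.13% in G, against 4.64% in B, 6.14% in D, 8.98% in F and 4.91% in H. The share of Fzd4, Fzd9 and Fzd10 was 30.9% in A, 32.6% in C, 30.2% in E and 33.2% in G, against 20.9% in B, 23.7% in D, 14.7% in F and 27.4% in H. The groups did not overlap in these 2 shares, nor in that of Fzd3 and Fzd6 (3.89% ± 0.41 and 6.46% ± 1.39). The shares of a library add to a fixed total, so they are not independent of each other, and no test was made of them.

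**Figure D4:**
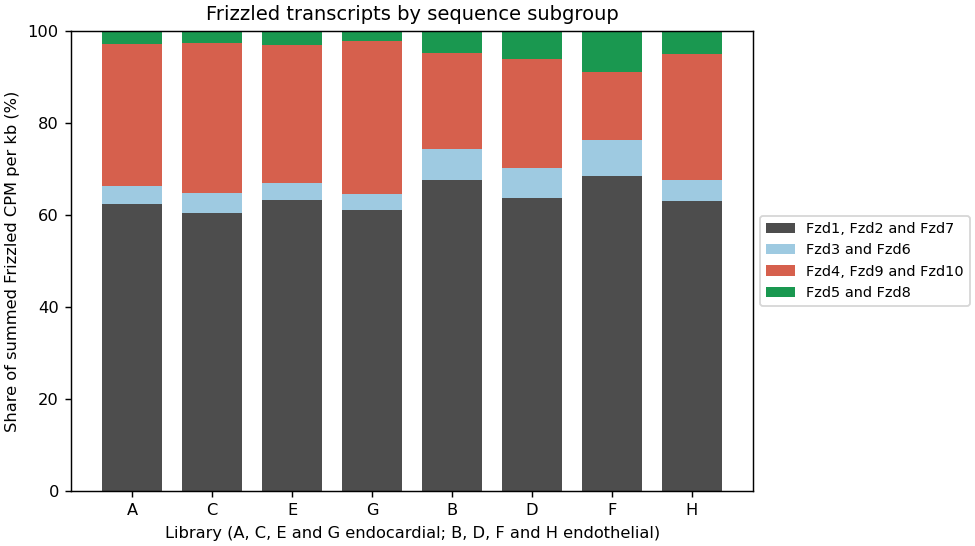
Share of the summed Frizzled level per kilobase (%, from 0 to 100) of each subgroup in each library, with the 4 endocardial libraries on the left. Fzd4, Fzd9 and Fzd10 hold 30.2% to 33.2% in the endocardial libraries and 14.7% to 27.4% in the endothelial ones, and Fzd5 and Fzd8 hold the least in the endocardial libraries.

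Of the 5 co-receptors and alternative receptors, 0 were called by edgeR or DESeq2, limma voom called 1, and 1, Ror2, had an unadjusted p below 0.05. Lrp5, a co-receptor of the beta-catenin branch that also serves retinal vessels, was at 192.2 CPM in A, 195.3 in C, 167.1 in E and 182.3 in G, against 170.6 in B, 172.3 in D, 149.1 in F and 162.6 in H. The groups overlapped (0.17 ± 0.10, adjusted p = 0.494). Lrp6, the closely related co-receptor, was at 134.9 to 195.7 CPM against 176.9 to 195.8 CPM (-0.14 ± 0.12, adjusted p = 0.669). Per kb their levels were close, at 20.7 ± 1.43 and 18.1 ± 2.72 in the endocardial and 18.4 ± 1.19 and 20.0 ± 0.88 in the endothelial libraries, though with mean transcript lengths Lrp6 was at 60.3 and Lrp5 at 35.4 over all libraries.

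Ror2, a tyrosine kinase-like receptor for Wnt5a, was at 66.9 CPM in A, 45.5 in C, 33.3 in E and 55.0 in G, against 102.1 in B, 71.1 in D, 52.4 in F and 68.4 in H. The groups overlapped, with B highest and E lowest (-0.55 ± 0.24, adjusted p = 0.325), and limma voom and the fit with the block (adjusted p = 0.0103) found Ror2 lower. Ror1, its relative, was at 16.6 to 29.8 CPM against 21.2 to 48.0 CPM (-0.43 ± 0.27, adjusted p = 0.534). Ryk, a Wnt receptor with an inactive kinase domain, was at 90.1 to 123.1 CPM against 74.1 to 118.4 CPM (0.01 ± 0.16, adjusted p = 0.986). Of these receptors Ryk had the highest level per kb, 33.2 ± 4.75 and 33.0 ± 6.19.

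Around the ligands and receptors, 75 other genes of the pathway were listed and 70 tested. Of these 3 rose (1.42% of all tested genes did) and 2 fell (1.16%), and the median log2 fold change was -0.06. With the block, which called 8.71% of all tested genes in either direction, 6 were higher and 7 were lower. Apcdd1, Daam1 and Myc were added as higher, and Apc2, Dkk1, Gpc4, Lrp4 and Sp8 as lower. Among the 4 genes of signal sending, edgeR, DESeq2 and limma voom called 0, and 1 had an unadjusted p below 0.05. That gene was Porcn, the enzyme that adds the lipid to Wnt proteins (-0.85, adjusted p = 0.155), and its groups did not overlap. Wls, the carrier that brings Wnts to the surface, was at -0.07 (adjusted p = 0.899). Notum, which removes the lipid again, was at -0.82 (0.426), and Trabd2b, a protease of Wnts, at -0.40 (0.566).

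Of 8 tested co-receptors and surface partners 1 rose. Tspan12, the tetraspanin that assists Fzd4 in Norrin signalling, was at 49.5 CPM in A, 43.8 in C, 39.8 in E and 54.9 in G, against 26.9 in B, 25.9 in D, 15.8 in F and 21.8 in H. The groups did not overlap (1.06 ± 0.18, adjusted p = 0.0149), and without library G the adjusted p was 0.0524. Norrin itself, Ndp, was at or below 0.417 CPM in every library and was not tested. Gpc4, a glypican (-0.76, adjusted p = 0.196), Lrp4 (-0.45, 0.289) and Adgra2, the partner of Wnt7 signalling in brain vessels (0.42, 0.485), were not called.

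The 14 genes of the destruction complex, beta-catenin and Dishevelled held 0 called genes in edgeR and 1 unadjusted p below 0.05. This was Apc2 (-1.10, adjusted p = 0.12), which DESeq2 and limma voom found lower. Beta-catenin itself, Ctnnb1, was at 0.04 (adjusted p = 0.937), Csnk1e at 0.13 (0.626) and Csnk1a1 at 0.14 (0.648). Of the 12 nuclear factors 0 were called by edgeR, DESeq2 or limma voom, and 3 had an unadjusted p below 0.05, 1 of them higher. Lef1 was at 0.37 (adjusted p = 0.322), Tcf7l2 at -0.31 (0.328), the corepressor Tle4 at -0.49 (0.239) and Pygo1 at -0.41 (0.41).

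In the list of planar cell polarity and other beta-catenin-independent genes, 1 of 17 rose and 2 fell. The gene that rose was Nfatc1, here as a factor of the calcium branch and given above as a marker of endocardium. Celsr1, an atypical cadherin of planar polarity, was at 23.9 CPM in A, 24.3 in C, 17.3 in E and 23.3 in G, against 45.1 in B, 70.1 in D, 76.4 in F and 37.1 in H. The groups did not overlap (-1.36 ± 0.23, adjusted p = 0.0162), and the call did not hold without C (0.0504), D (0.059), E (0.0677) or G (0.0619). Celsr2 was at 20.3 CPM in A, 23.8 in C, 21.2 in E and 15.2 in G, against 39.6 in B, 71.4 in D, 96.2 in F and 32.3 in H, again with no overlap (-1.57 ± 0.33, adjusted p = 0.0408). That call held only without B or H among the 8 fits that leave out a library, with adjusted p from 0.0533 to 0.124 in the other 6, and it was 0.0835 with no filter on low counts. Celsr3 was at -1.27 (adjusted p = 0.0596), with groups that did not overlap. It was found lower by DESeq2, by limma voom and by edgeR with no filter on low counts. In Celsr1 and Celsr2, as in Wnt8b, Wnt1 and the neural marker sum, F and D were the highest libraries.

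Of 19 tested genes that are often read as targets of beta-catenin signalling, 1 rose and 0 fell in edgeR, with 3 higher and 3 lower at an unadjusted p below 0.05. DESeq2 found 0 lower and limma voom 1, Dkk1. Lgr5, the R-spondin receptor, was at 10.8 CPM in A, 13.7 in C, 8.17 in E and 14.6 in G, against 4.01 in B, 4.82 in D, 5.01 in F and 3.35 in H. The groups did not overlap (1.46 ± 0.24, adjusted p = 0.0147), and the call did not hold without C (0.0654) or G (0.0538). Axin2, a feedback inhibitor and common reporter, was at 28.7 CPM in A, 34.0 in C, 24.8 in E and 25.0 in G, against 29.4 in B, 48.0 in D, 40.9 in F and 28.1 in H. The groups overlapped (-0.38 ± 0.19, adjusted p = 0.418). Dkk1, a secreted inhibitor of Lrp5 and Lrp6 (-0.97, adjusted p = 0.19), Sp8 (-1.37, 0.157) and Apcdd1, a membrane inhibitor (0.50, 0.149), were not called, and the 19 divided into 9 above and 10 below 0.

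**Figure D5:**
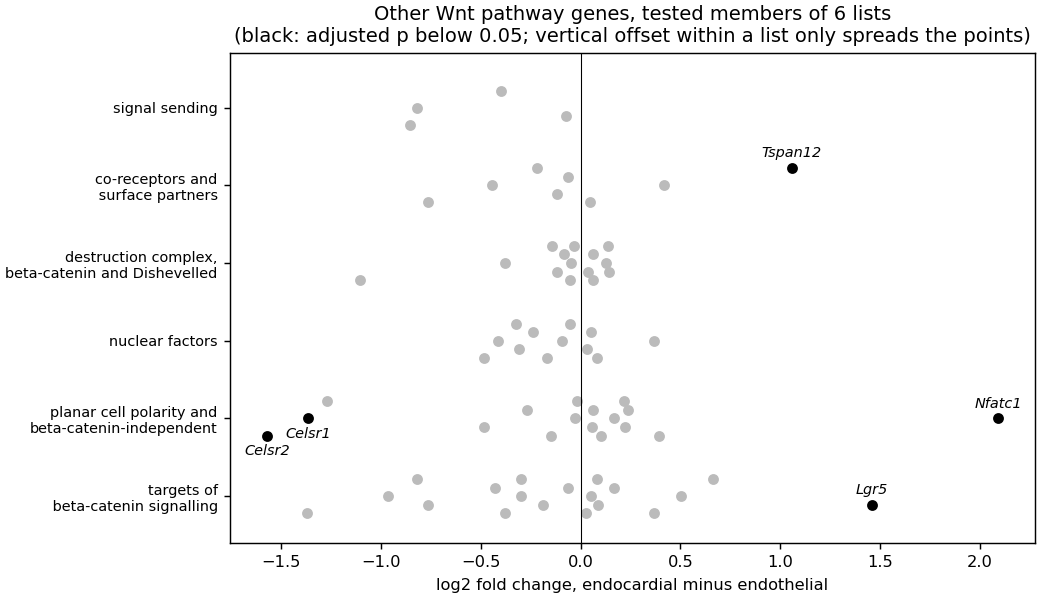
Log2 fold change (endocardial minus endothelial, horizontal axis) of each tested gene of the 6 pathway lists, 1 point a gene and list. The 5 genes that passed the adjusted threshold are black and named, from Celsr2 at -1.57 to Nfatc1 at 2.09, and the grey points of the destruction complex and nuclear lists gather near 0 except Apc2 at -1.10.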

How the data were processed

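RNA from 8 libraries was made with a column kit and a stranded mRNA kit, per the labels' protocols. The authors deposited an estimated count for each gene symbol and library, and Salmon, DESeq2 and mm10 are named per the submitters' processing notes. These deposited counts are whole numbers that sum to different totals. The transcript set and the strand setting were not given in these sources, so reads of overlapping genes on opposite strands may be shared. No 2 libraries agreed within sampling noise (lowest chi-square per degree of freedom of a pair 8.4).

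Genes were kept by filterByExpr at a count of at least 10 and a total of at least 15. The 13817 that passed were TMM-scaled and put to the robust quasi-likelihood F-test of edgeR 4.0.16 (R 4.3.3). Benjamini-Hochberg adjustment ran over all of them, and a gene was called, and described as rising or falling, at an adjusted p below 0.05. SEs are log2 fold changes (absolute) over the root of F. CPM are on TMM-scaled totals. Levels per kb divide CPM by the longest GENCODE M21 transcript (GRCm38, which holds 32697 of the 34536 symbols). The test was checked on simulated counts in which genes of low level were left unchanged. That check therefore does not cover the lowest ligands. Alternatives were DESeq2 1.42.0, limma 3.58.1 voom with sample weights, other scalings and filters, a threshold of 0.01, a block of neighbouring letters and leaving out each library.

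The members, pathway lists and markers were chosen with earlier results of these data known. All members are named. Of each pathway list the called genes and up to 4 with the smallest p are named, and Ctnnb1, Axin2 (as a target) and Ndp were added after their values were seen.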

Additional observations from a re-analysis of the deposited data

Results flagged for a closer look

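Of 92 groups of 4 libraries examined, 4 held a library whose gap to the nearest other, over the range of the group, was above Dixon's critical value at the 95% level. Chance alone gives about 1 in 20 such groups. Fzd5 in endothelial library F was at 52.0 CPM, with the other endothelial libraries at 27.7 to 30.3 CPM (ratio 0.896). Fzd6 in endocardial library C was at 8.69 CPM, with the others at 5.74 to 5.91 CPM (ratio 0.94). Celsr1 in endocardial library E was at 17.3 CPM, with the others at 23.3 to 24.3 CPM (ratio 0.863). The sum of 6 blood markers in endothelial library B was 1965 CPM, with the others at 241 to 357 CPM (ratio 0.933).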

How the results depend on the processing

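Among the 28 ligands and receptors, the 2 lower and 0 higher became 1 lower at an adjusted p below 0.01, 7 lower and 1 higher with DESeq2, 5 lower and 2 higher with limma voom, and 11 lower and 1 higher with each pair of neighbouring letters as a block, which no label states. Leaving out a library gave 1 to 4 lower. Of the pathway genes, the 3 higher and 2 lower became 1 and 0 at 0.01, and 6 and 7 with the block, while 4 were lower with DESeq2 and 5 with limma voom. Leaving out a library gave 1 to 3 higher and 0 to 2 lower. Over all genes the 356 calls became 104 at 0.01, 860 with DESeq2, 975 with limma voom and 1204 with the block, and 135 (without E) to 457 (without B) with a library left out. The causes were not tested. The groups share no replicate letter, so the labels pair no libraries. The deviations of neighbouring letters from their group means correlated across genes at 0.555 (A with B), 0.324 (C with D), 0.337 (E with F) and 0.611 (G with H), and in each of the 4 the neighbour was the best match, a hint from the data and not from the design. Sign changes occurred in 14 log2 fold changes, none of them called. Ryk was at -0.0299 with upper-quartile scaling, at -0.0668 with limma voom and at -0.131 to 0.0902 with a library left out. Fzd1 was at 0.102 with limma voom and -0.133 to 0.0381 with a library left out, Wnt5a at -0.00338 and -0.137 to 0.188, and Wnt2b at -0.276 to 0.293 with a library left out. Of the other log2 fold changes, 504 kept direction and side of the threshold, 23 gained and 20 lost the call. Mean transcript length moved 9 of 34 levels per kb by more than the spread between libraries. Depth limits the low ligands, of which several endocardial values rest on under 3 counts.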
